A study of Homo sapiens with 29 samples.

Results

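The 10 genes described here encode subunits of the TIP60 and SRCAP complexes: KAT5, EP400, TRRAP, BRD8, SRCAP, ACTR6, DMAP1, YEATS4, VPS72 and ACTL6A. They were chosen by name, as genes of complexes that share the ATPases RUVBL1 and RUVBL2 with the INO80 complex, and are 10 of 19785 protein-coding genes with an annotated coding start. The rule uses no measured value, but the genes were chosen with earlier results of these data known. All 10 symbols matched the GENCODE annotation of hg19, the build of the deposited peaks.

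Occupancy was measured by ChIP-seq, in which DNA bound to a protein is pulled down with an antibody and sequenced. A peak is a stretch of genome where the pulled-down reads pile up. Untreated cells of HepG2 and Huh7, established human liver cancer lines, were used for INO80 (3 libraries in HepG2, 2 in Huh7), MCRS1 and RUVBL2 (2 libraries in each line), RUVBL1 (2 in HepG2) and YY1 (2 in Huh7). The YY1 peaks of HepG2 came from public ENCODE reads, with no sample record of their own. The 3 HepG2 libraries of INO80 were made with 2 lots of the antibody, of which the Huh7 libraries used 1.

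The data used here are 9 peak lists, 1 for each factor and line, and they hold positions only. They give no peak height, enrichment or depth, so the depth behind each peak is unknown. No value for a single library can be read from them, and nothing below carries a replicate error or a test. Peak number and width may follow sequencing depth as well as occupancy, and the part of depth was not tested. The lists ranged from 3322 peaks for RUVBL2 in Huh7 to 39293 for YY1 in HepG2, and each factor mapped in both lines had more peaks in HepG2. Of 6 hepatocyte genes checked (ALB, APOA1, APOB, SERPINA1, TTR and AFP), 6 had an INO80 peak at a coding start in HepG2 and 1 in Huh7, APOB. Peaks are not expression, so this count does not measure how much of these genes either line makes.

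INO80 is an ATPase that slides nucleosomes, and MCRS1 is a subunit of its complex. RUVBL1 and RUVBL2 form a ring of ATPases that is built into the INO80, SRCAP and TIP60 complexes alike. YY1 is a transcription factor that binds a short DNA sequence and joins the INO80 complex. The SRCAP complex exchanges histone H2A for the variant H2A.Z at promoters, and the TIP60 complex joins that exchange to acetylation of histones H4 and H2A. A peak of RUVBL1 or RUVBL2 by itself therefore does not tell which of these complexes lay at a site.

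INO80 had a peak within 1 kb of a coding start of all 10 genes in HepG2, where 63.7% of all protein-coding genes had one. In Huh7 it had a peak at 7 of them, against 47.7% of all genes. EP400, TRRAP and VPS72 were the 3 with INO80 in HepG2 only, a pattern held by 18.4% of genes. INO80 in both lines, as at the other 7, was held by 45.3% of genes, and INO80 in Huh7 only, held by 2.4% of genes, was seen at 0 of the 10. In HepG2, MCRS1 had a peak at 9 genes (58.1% of all genes), RUVBL1 at 4 (16.8%), RUVBL2 at 8 (39.1%) and YY1 at 10 (62.6%). In Huh7, MCRS1 had a peak at 3 genes (21.8% of all genes), RUVBL2 at 4 (12.7%) and YY1 at 9 (51.5%). With all peaks kept, the share of the 10 genes was above the share of all genes in each of the 9 lists. The gap was small for MCRS1 in Huh7, at 3 of 10 genes against 21.8%. With lists cut to equal numbers of their widest peaks, the share was below in HepG2 for INO80, MCRS1 and RUVBL2. Each then had a peak at 1 of the 10 genes, against 15.6%, 15.3% and 14.2% of all genes. In the other lists the share stayed above. The RUVBL2 list of Huh7 sets the number kept, 3322 peaks, so it was not cut and its share could not change. The lists of RUVBL1 in HepG2 (5518 peaks) and MCRS1 in Huh7 (6020) lost far fewer peaks than that of INO80 in HepG2 (23665).

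**Figure D1:**
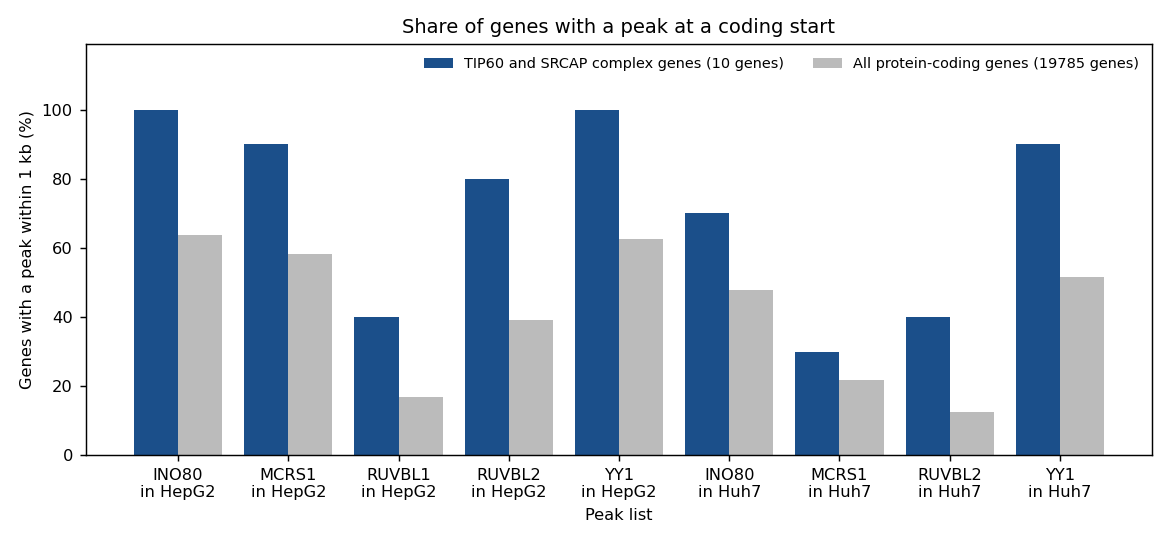
Share of genes with a peak within 1 kb of a coding start (vertical axis, percent) in each peak list (horizontal axis), for the 10 genes (blue bars) and all 19785 protein-coding genes (grey bars). The blue bar is the higher in all 9 lists, at 100% for INO80 and YY1 in HepG2 and at 30.0% for MCRS1 in Huh7, where the grey bar is at 21.8%.

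**Figure D2:**
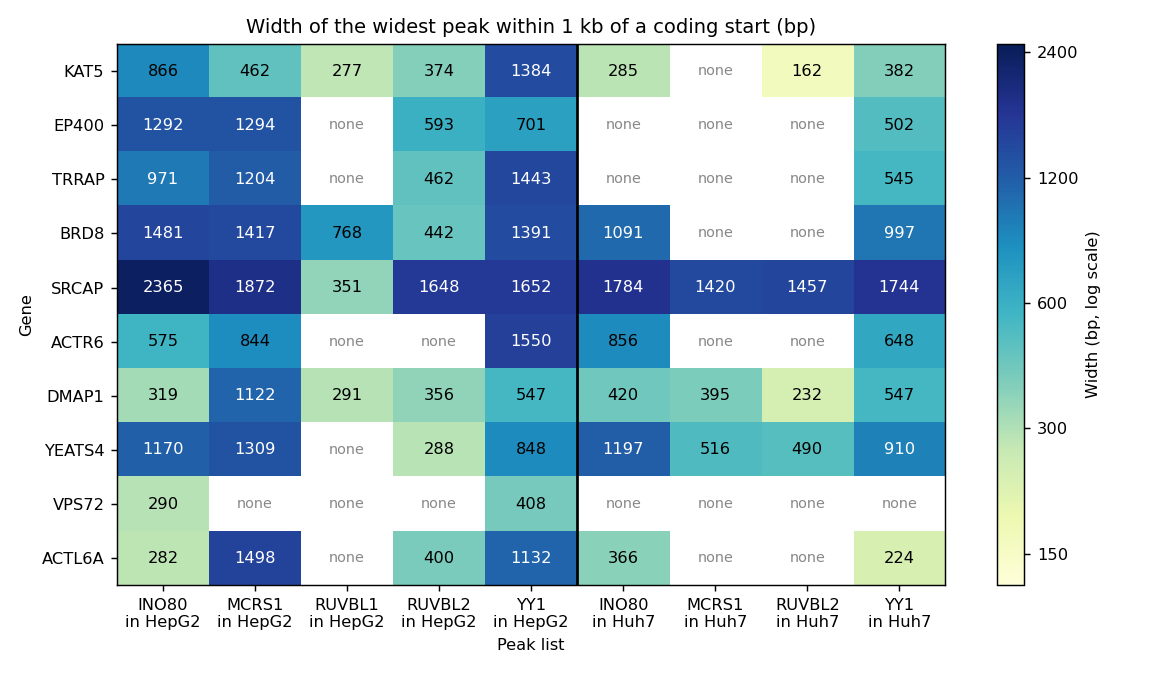
Width in bp of the widest peak within 1 kb of a coding start, for each gene (rows) in each peak list (columns), with darker colours for wider peaks and "none" where the list held no peak. The SRCAP row is filled in all 9 lists, from 351 to 2365 bp, and the VPS72 row in 2.

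The genes fell between 2 and 9 lists each. SRCAP and DMAP1 had a peak in all 9 lists, as did 5.26% of protein-coding genes. KAT5 and YEATS4 had a peak in 8 lists, BRD8 in 7, ACTL6A in 6, and EP400, TRRAP and ACTR6 in 5. VPS72 had a peak in 2. The median over the 10 genes was 6.5 lists, and over all protein-coding genes it was 4 lists, with 27.8% of genes in none. No member had a combination of lists of its own. EP400 and TRRAP had the same one, shared by 787 genes in all, that of SRCAP and DMAP1 was shared by 1041, that of KAT5 by 157 and that of VPS72 by 181.

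**Figure D3:**
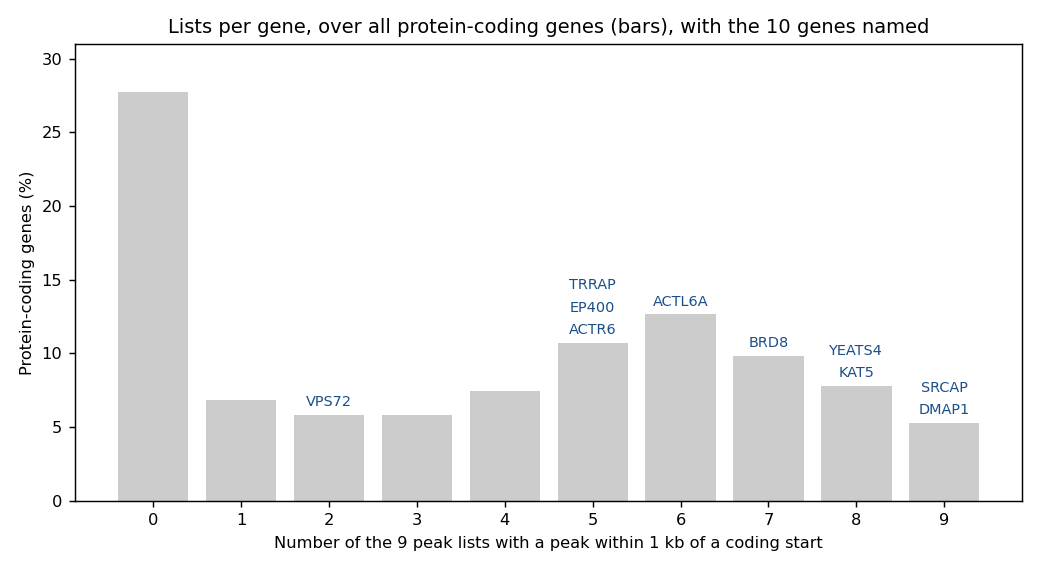
Number of the 9 peak lists in which a gene had a peak within 1 kb of a coding start (horizontal axis) against the share of protein-coding genes in percent (vertical axis), with the 10 genes written over their number. SRCAP and DMAP1 stand at 9 lists and VPS72 at 2, and the bar at 0 lists holds 27.8% of genes.

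Sequences at the starts of 4 of the genes follow, because they hold either the widest INO80 peaks of HepG2 (SRCAP, BRD8 and EP400) or a match to the core motif of YY1 (KAT5 and BRD8). Each runs 5′ to 3′ along the gene's strand over 300 bases, from 250 before the canonical start, the first base of the GENCODE canonical transcript. They were read from the hg19 genome at chr11:65479473-65479772 (plus strand) for KAT5, chr12:132434237-132434536 (plus) for EP400, chr5:137514270-137514569 (minus) for BRD8 and chr16:30710242-30710541 (plus) for SRCAP. Capitals mark a match to CCATNTT or its reverse complement.
KAT5: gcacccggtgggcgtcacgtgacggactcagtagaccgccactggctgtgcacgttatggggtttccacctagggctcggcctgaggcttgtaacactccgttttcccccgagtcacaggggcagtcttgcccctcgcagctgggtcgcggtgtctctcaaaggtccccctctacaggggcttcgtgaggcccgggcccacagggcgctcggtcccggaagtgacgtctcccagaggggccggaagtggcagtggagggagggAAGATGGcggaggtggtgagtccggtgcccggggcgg
EP400: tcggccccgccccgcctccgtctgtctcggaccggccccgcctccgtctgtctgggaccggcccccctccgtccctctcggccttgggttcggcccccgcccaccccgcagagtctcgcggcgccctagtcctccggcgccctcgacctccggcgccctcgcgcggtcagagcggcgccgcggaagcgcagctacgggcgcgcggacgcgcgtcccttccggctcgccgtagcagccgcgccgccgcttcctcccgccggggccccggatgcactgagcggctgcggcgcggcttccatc
BRD8: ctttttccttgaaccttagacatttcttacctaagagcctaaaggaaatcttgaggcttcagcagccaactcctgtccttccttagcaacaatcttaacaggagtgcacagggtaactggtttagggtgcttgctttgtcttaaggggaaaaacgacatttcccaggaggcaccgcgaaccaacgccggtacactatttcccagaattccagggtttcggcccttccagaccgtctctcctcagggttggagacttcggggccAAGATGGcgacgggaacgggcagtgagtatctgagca
SRCAP: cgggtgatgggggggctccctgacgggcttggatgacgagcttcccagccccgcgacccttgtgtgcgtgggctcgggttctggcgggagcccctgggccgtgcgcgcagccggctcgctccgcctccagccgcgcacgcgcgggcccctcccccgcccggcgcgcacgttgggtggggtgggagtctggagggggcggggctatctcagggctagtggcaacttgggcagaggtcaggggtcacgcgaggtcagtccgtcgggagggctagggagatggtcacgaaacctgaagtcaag
The match has the same letters, AAGATGG, at KAT5 and BRD8, and lies at the same distance, 13 to 19 bases after the canonical start. At both genes it contains the annotated start codon, which begins 16 bases after the start. The letters AAGATGG themselves hold ATG, and the share of all genes with a match at this place or over a start codon was not computed.

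KAT5, the acetyltransferase of the TIP60 complex, had peaks in 8 lists, and MCRS1 in Huh7 was the exception. The gene lies on chromosome 11, plus strand, with 5 coding starts spread over 624 bp. In HepG2 the INO80 peak (chr11:65479077-65479942) was 866 bp wide, MCRS1 462 bp, RUVBL1 277 bp, RUVBL2 374 bp and YY1 1384 bp. In Huh7 the INO80 peak was 285 bp wide, RUVBL2 162 bp and YY1 382 bp. Every one of the Huh7 peaks was narrower than the peak of the same factor in HepG2. The INO80 peak of HepG2 reached 646 bp upstream of the canonical start and covered 4 of the 5 coding starts, whereas that of Huh7 (chr11:65479717-65480001) began 6 bp upstream of it and covered 1. The INO80 peaks shared 226 bp, which is 26.1% of the HepG2 peak and 79.3% of the Huh7 peak. The YY1 core match of KAT5 (chr11:65479736-65479742) lay under the peaks of 7 lists, and the Huh7 RUVBL2 peak began just beyond it.

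EP400 is the ATPase of the TIP60 complex that handles H2A.Z, and TRRAP is a very large scaffold protein, related to lipid kinases but without kinase activity, that contacts transcription activators. At EP400 in HepG2 the INO80 peak (chr12:132434043-132435334) was 1292 bp wide, MCRS1 1294 bp, RUVBL2 593 bp and YY1 701 bp. At TRRAP in HepG2 the INO80 peak (chr7:98475882-98476852) was 971 bp wide, MCRS1 1204 bp, RUVBL2 462 bp and YY1 1443 bp. Neither gene had a RUVBL1 peak in HepG2, and YY1 was the only factor with a peak at either in Huh7, 502 bp wide at EP400 and 545 bp at TRRAP. These YY1 peaks lay wholly inside those of HepG2. The INO80 list of Huh7 had no peak within 10 kb of a coding start of EP400, and its nearest to TRRAP was 147 bp wide and 8741 bp away. The RUVBL2 peaks of HepG2 lay downstream of every coding start, by 71 bp at EP400 and 90 bp at TRRAP, while the INO80 and MCRS1 peaks covered the starts of both genes. EP400 and TRRAP also had the most GC-rich starts of the 10, with 74.8% and 73.3% GC within 500 bases of the canonical start on either side, against a median of 61.3% over 19744 promoters.

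BRD8, a TIP60 subunit with a bromodomain, the fold that binds acetylated lysine, had peaks in all 5 lists of HepG2 and in those of INO80 and YY1 in Huh7. The INO80 peak of BRD8 in HepG2 (chr5:137513788-137515268) was 1481 bp wide, MCRS1 1417 bp, RUVBL1 768 bp, RUVBL2 442 bp and YY1 1391 bp. In Huh7 the INO80 peak was 1091 bp wide and YY1 997 bp. The Huh7 INO80 peak lay wholly inside that of HepG2, and their centres were 14 bp apart. BRD8 is on the minus strand of chromosome 5 and faces KIF20A, a kinesin gene on the plus strand, whose coding starts at positions 137514801 and 137514849 lay under the same INO80 peaks. It was the only one of the 10 genes to share a peak within 1 kb with another protein-coding gene, so its peaks cannot be assigned to BRD8 alone. The RUVBL2 peak began 39 bp downstream of the nearest BRD8 start, inside the transcribed part of BRD8. The YY1 core match (chr5:137514300-137514306) lay under the peaks of 6 lists, and the RUVBL2 peak of HepG2 stopped short of it.

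**Figure D4:**
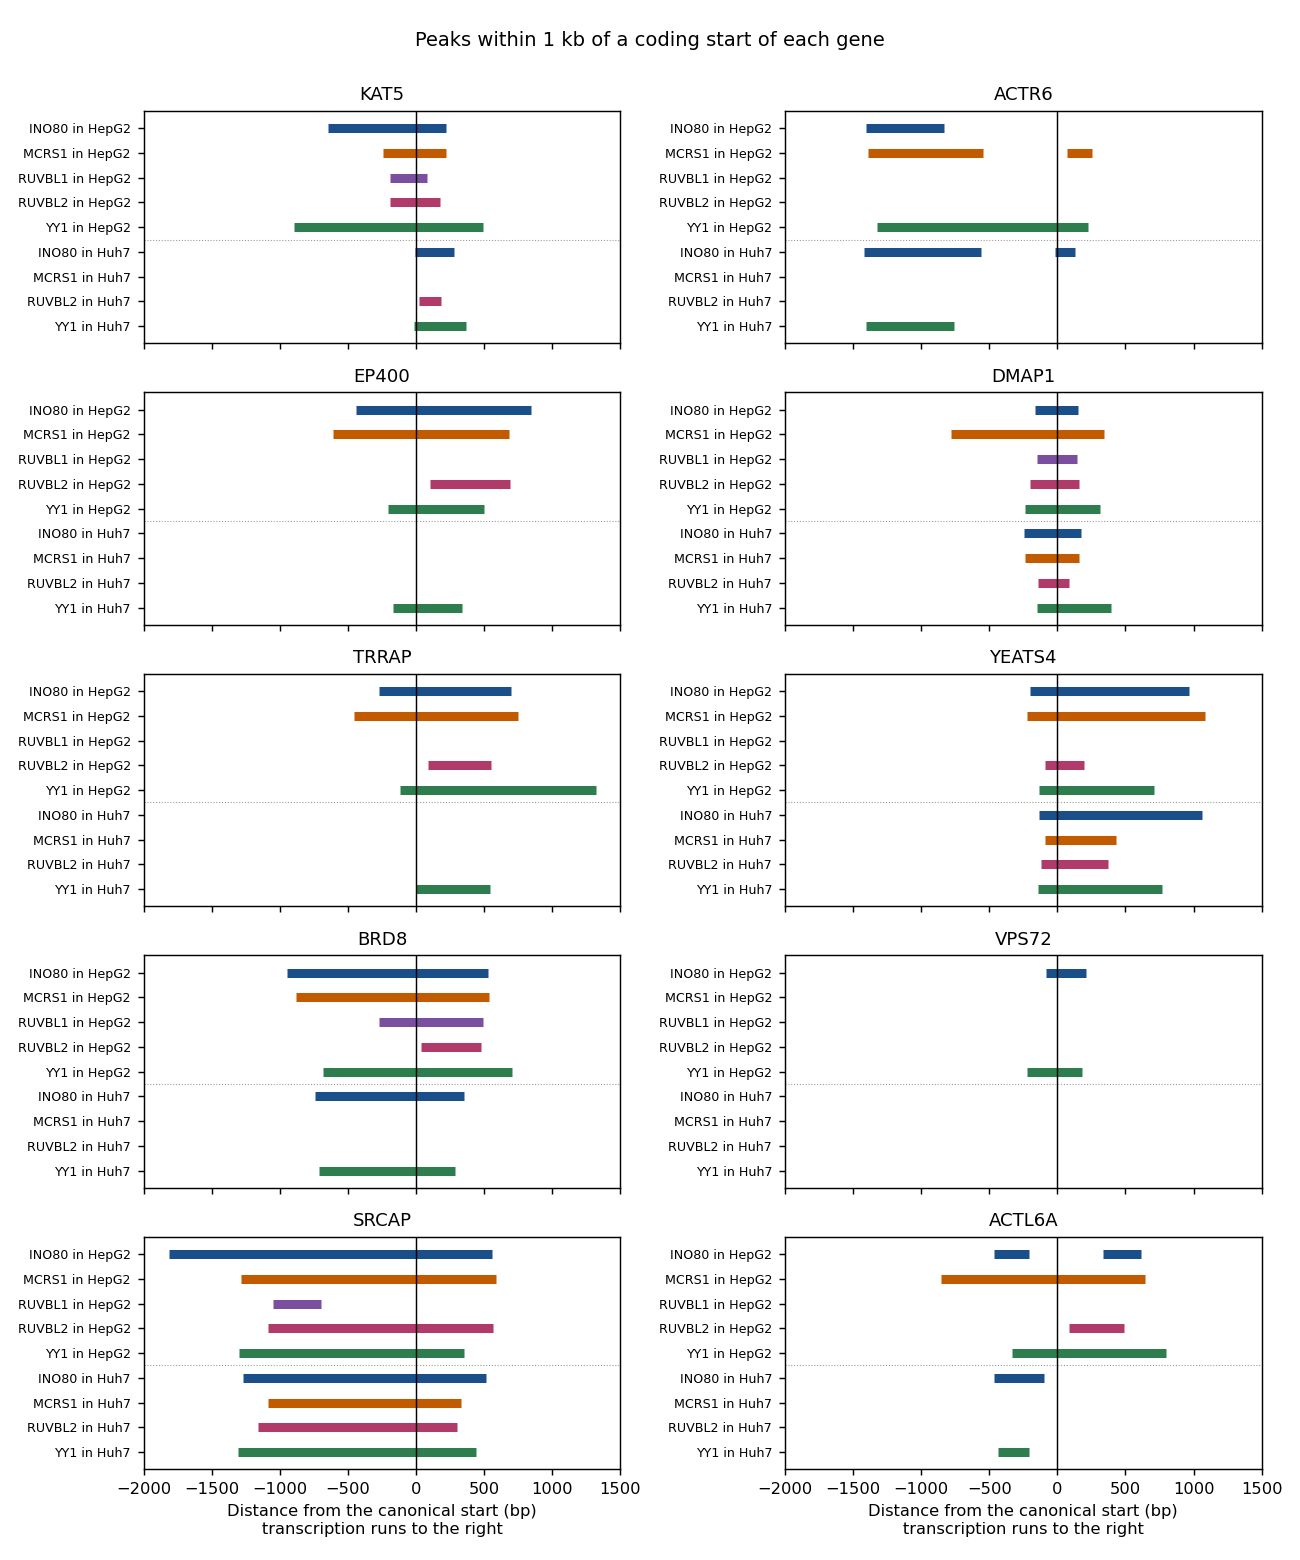
Extent of each peak within 1 kb of a coding start, in bp from the canonical start (vertical line at 0, transcription to the right), for the 10 genes and 9 lists, with HepG2 above the dotted line and Huh7 below. The SRCAP bars reach over 1000 bp upstream in all lists, those of DMAP1 all cover the start, and the INO80 bars of ACTL6A flank the start without covering it.

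SRCAP, the ATPase that gives its complex its name and carries out the exchange for H2A.Z, had the widest peak of the 10 genes in 8 of the 9 lists. The INO80 peak of SRCAP in HepG2 (chr16:30708682-30711046) was 2365 bp wide, MCRS1 1872 bp, RUVBL1 351 bp, RUVBL2 1648 bp and YY1 1652 bp. In Huh7 the INO80 peak (chr16:30709219-30711002) was 1784 bp wide, MCRS1 1420 bp, RUVBL2 1457 bp and YY1 1744 bp. RUVBL1 was the exception, and its widest peak among the genes was at BRD8. Set among all genes with a peak in the same list, the SRCAP width in HepG2 was at percentile 87.5 for INO80, 79.8 for MCRS1, 55.5 for RUVBL1, 90.9 for RUVBL2 and 87.0 for YY1. In Huh7 it was at percentile 91.1 for INO80, 95.8 for MCRS1, 93.0 for RUVBL2 and 91.6 for YY1. Its 3 coding starts are spread over 962 bp, and each peak apart from that of RUVBL1 covered all of them. The RUVBL1 peak covered the most upstream start and stopped short of the canonical one. Starts of an antisense long non-coding RNA (ENSG00000261840, minus strand) lay under the INO80 peaks of both lines as well. HepG2 has gained copies of chromosomes 2, 14, 16, 17 and 20, SRCAP was the only one of the 10 genes on any of them, and the part of copy number in its widths was not tested.

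ACTR6, an actin-related protein of the SRCAP complex, was the gene whose main peaks lay farthest from a coding start. In HepG2 the INO80 peak (chr12:100593188-100593762) was 575 bp wide and ended 831 bp upstream of the nearest coding start. MCRS1 had a peak of 844 bp at the same upstream place and a second of 185 bp just downstream of the start, and the YY1 peak of 1550 bp ran from the upstream place across the start. In Huh7 INO80 had an upstream peak of 856 bp and a peak of 147 bp on the start itself, and YY1 had an upstream peak of 648 bp. The upstream INO80 peaks covered an annotated ACTR6 start at position 100593643 that is not among the coding starts used here. They also covered the starts of a pseudogene (ENSG00000257489) and a long non-coding RNA (ENSG00000290576) on the other strand. RUVBL1 and RUVBL2 had no peak at ACTR6. Its sequence within 500 bases of the start on either side was the least GC-rich of the 10, at 47.7%.

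DMAP1, a subunit of both complexes with a SANT domain, was in all 9 lists. The INO80 peak of DMAP1 in HepG2 (chr1:44678978-44679296) was 319 bp wide, MCRS1 1122 bp, RUVBL1 291 bp, RUVBL2 356 bp and YY1 547 bp. In Huh7 the INO80 peak was 420 bp wide, MCRS1 395 bp, RUVBL2 232 bp and YY1 547 bp. All 9 peaks covered its 3 coding starts, which lie within 33 bp. The INO80 width was at percentile 9.30 in HepG2 and 35.0 in Huh7, so DMAP1 and SRCAP share presence in every list and stand far apart in width. In HepG2 the centre of the INO80 peak was 5 bp from that of RUVBL1, 13.5 bp from RUVBL2, 43 bp from YY1 and 213.5 bp from MCRS1. In Huh7 it was 0.5 bp from that of MCRS1, 8 bp from RUVBL2 and 159.5 bp from YY1.

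YEATS4 (GAS41), a subunit of both complexes whose YEATS domain binds acylated lysines on histone H3, had peaks in every list but RUVBL1. The INO80 peak of YEATS4 in HepG2 (chr12:69753320-69754489) was 1170 bp wide, MCRS1 1309 bp, RUVBL2 288 bp and YY1 848 bp. In Huh7 the INO80 peak (chr12:69753391-69754587) was 1197 bp wide, MCRS1 516 bp, RUVBL2 490 bp and YY1 910 bp. INO80, RUVBL2 and YY1 were thus each wider in Huh7, and MCRS1 was wider in HepG2. The INO80 peaks of the lines shared 1099 bp, 93.9% of the HepG2 peak and 91.8% of the Huh7 peak.

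VPS72 (YL1), which holds the H2A.Z and H2B pair during exchange, had the fewest peaks. In HepG2 the INO80 peak (chr1:151162466-151162755) was 290 bp wide, at percentile 7.78 of INO80 widths, and YY1 had a peak of 408 bp. None of the 4 Huh7 lists had a peak at its single coding start. An MCRS1 peak of 1933 bp in HepG2 lay 5450 bp upstream of it. That peak was near PIP5K1A and near an annotated VPS72 start, at position 151167797, that is not among the coding starts used here. A RUVBL2 peak of 277 bp and a RUVBL1 peak of 259 bp in HepG2 lay 6271 and 7300 bp from the coding start, also upstream. In Huh7 an INO80 peak of 903 bp and a YY1 peak of 982 bp lay in the same upstream region, 6215 and 6401 bp from the coding start. With all annotated starts admitted, MCRS1 in HepG2 had a peak at all 10 genes, against 59.7% of all genes.

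ACTL6A (BAF53A) is an actin-related protein of the TIP60, INO80 and BAF complexes, and is counted here with the genes of both complexes as listed. Its INO80 signal in HepG2 was split into peaks on either side of the start, 252 bp wide upstream and 282 bp wide downstream, and neither covered a coding start. The MCRS1 peak of 1498 bp and the YY1 peak of 1132 bp spanned the gap between them, and the RUVBL2 peak of 400 bp lay downstream by 87 bp. In Huh7 INO80 had the upstream peak alone (366 bp), and YY1 had a peak of 224 bp inside it.

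RUVBL2 in HepG2 showed the downstream placement at several of these genes. The centre of its widest peak was downstream of the canonical start at 5 of the 8 genes with a peak (EP400, TRRAP, BRD8, YEATS4 and ACTL6A), against 60.5% of all genes with a RUVBL2 peak, which is near that background. Its peak covered a coding start at 4 of the 8 genes, and at 54.9% of all genes with a peak. INO80 covered a start at 8 of 10 genes in HepG2 (82.7% of all genes with a peak) and at 6 of 7 in Huh7 (60.7%), and YY1 at 10 of 10 in HepG2 (91.5%) and 6 of 9 in Huh7 (74.3%). Over the bodies of the 10 genes, beyond 1 kb of a coding start, neither INO80 nor MCRS1 had a peak. The share of all genes with a body peak was not computed, so this absence cannot be read as particular to these genes. RUVBL2 in HepG2 had body peaks of 196 bp at KAT5 and 239 bp at SRCAP, and the widest body peak of any list was one of YY1 in Huh7 at KAT5, 1096 bp.

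The lines were compared first by position. Of the INO80 peaks of HepG2, those at 7 of 10 genes overlapped an INO80 peak of Huh7 by at least 1 bp, against 70.0% of all genes with an INO80 peak in HepG2. The count was 3 of 9 for MCRS1 (36.4% of all genes), 4 of 8 for RUVBL2 (27.4%) and 9 of 10 for YY1 (76.1%). For INO80 and MCRS1 the members' shares were thus near the background. SRCAP, DMAP1 and YEATS4 were the genes with an overlap for all 4 factors mapped in both lines. The share of all genes with an overlap for all 4 was not computed, so this cannot be read as particular to these genes. When peaks were all trimmed to 200 bp at the centre, the INO80 overlap between the lines was seen at 4 genes in place of 7. The share of all genes with trimmed peaks was not computed for this overlap, so the fall cannot be read as particular to these genes.

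By width, the INO80 peak was wider in HepG2 at 3 of the 7 genes with a peak in both lines (KAT5, BRD8 and SRCAP), whereas it was wider in HepG2 at 81.8% of all such genes. ACTR6, DMAP1, YEATS4 and ACTL6A had the wider INO80 peak in Huh7. The ratio of HepG2 to Huh7 width was 3.04 at KAT5, 1.36 at BRD8, 1.33 at SRCAP, 0.977 at YEATS4, 0.771 at ACTL6A, 0.760 at DMAP1 and 0.672 at ACTR6, with a median of 0.977 against 1.78 over all genes. The 4 genes include YEATS4, where the lines differ by 27 bp, and ACTL6A, where the widest peaks of the lines do not overlap. At ACTR6 the direction turned with the peak taken, since the peak nearest the coding start was 575 bp wide in HepG2 and 147 bp in Huh7, which makes 4 of 7 genes wider in HepG2. MCRS1 was wider in HepG2 at 3 of 3 genes (95.4% of all genes with both), RUVBL2 at 3 of 4 (81.4%) and YY1 at 6 of 9 (75.2%). The YY1 peaks of SRCAP and YEATS4 were wider in Huh7, and those of DMAP1 were equal at 547 bp but offset by 85 bp.

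**Figure D5:**
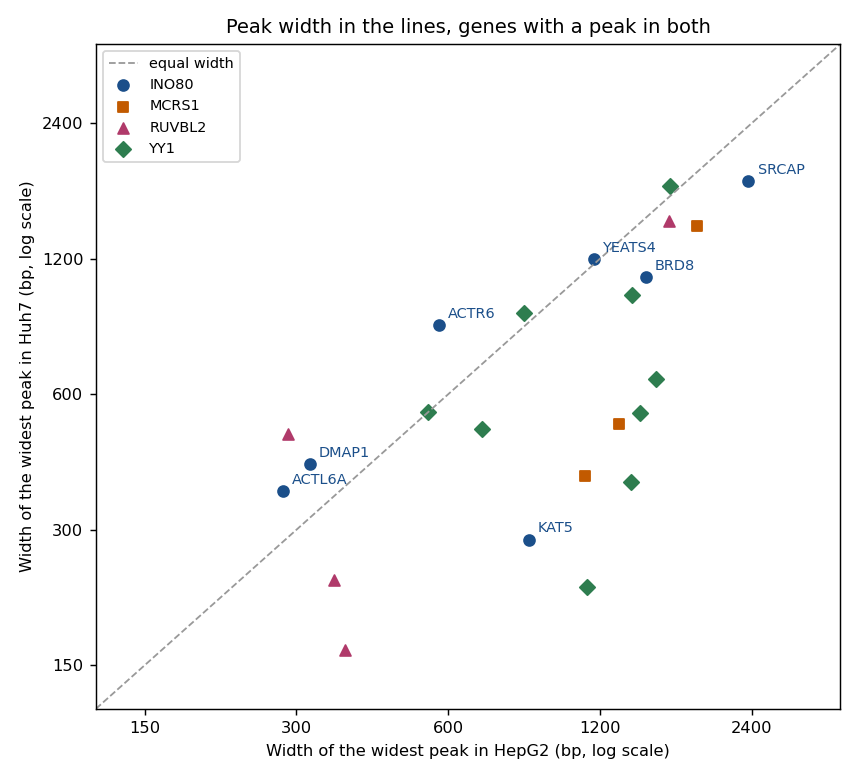
Width of the widest peak in HepG2 (horizontal axis, bp, log scale) against Huh7 (vertical axis, bp, log scale) for each gene and factor with a peak in both lines, with gene names beside the INO80 points and a dashed line of equal width. The INO80 points of KAT5, BRD8 and SRCAP lie below the line and those of ACTR6, DMAP1, YEATS4 and ACTL6A above it, YEATS4 by 27 bp.

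The partners were then read against the INO80 peaks. In HepG2 the INO80 peak overlapped an MCRS1 peak at 9 of 10 genes (85.8% of all genes with an INO80 peak), a RUVBL1 peak at 4 (26.6%), a RUVBL2 peak at 8 (60.3%) and a YY1 peak at 10 (88.0%). In Huh7 it overlapped an MCRS1 peak at 3 of 7 genes (41.6%), a RUVBL2 peak at 4 (23.9%) and a YY1 peak at 7 (79.4%). The shares for MCRS1 were near those of all genes in both lines. MCRS1 peaks covered 53.4% of the HepG2 INO80 peak at KAT5 and 100% of it at TRRAP, DMAP1, YEATS4 and both INO80 peaks of ACTL6A. RUVBL1 covered 14.8% of it at SRCAP, 32.0% at KAT5, 51.9% at BRD8 and 91.2% at DMAP1. With at least 50% of the INO80 peak required, the HepG2 counts were 2 genes for RUVBL1 and 3 for RUVBL2. The share of all genes under that rule was not computed.

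Widths were then compared over the lists. The median width of the members' widest INO80 peaks was 918.5 bp in HepG2, against 1118.5 bp over all genes with a peak, and 856 bp in Huh7, against 635 bp. The Huh7 median is the upstream peak of ACTR6, and with the nearest peak at each gene it was 420 bp. For YY1 the medians were 1258 bp against 909 bp in HepG2 and 547 bp against 658 bp in Huh7. For MCRS1 they were 1294 bp against 1148 bp in HepG2 and 516 bp against 310 bp in Huh7, and for RUVBL2 421 bp against 518 bp and 361 bp against 277 bp. The RUVBL1 medians were 321 bp and 315 bp. With each list cut to its 3322 widest peaks, the number of the shortest list, INO80 had a peak at 1 gene in HepG2 (15.6% of all genes) and 3 in Huh7 (15.3%), MCRS1 in HepG2 at 1 (15.3%), RUVBL2 in HepG2 at 1 (14.2%), and YY1 at 5 in HepG2 (16.2%) and 2 in Huh7 (14.7%). With the wider 50% of each list, INO80 had a peak at 6 genes in HepG2 (47.6% of all genes) and 4 in Huh7 (30.4%).

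The other genes of these complexes, 14 in number, had INO80 peaks at 13 in HepG2 (63.7% of all genes) and 13 in Huh7 (47.7%). RUVBL2, the gene of the shared ATPase itself, had an INO80 peak in neither line. Within the 14, INO80 was widest at ACTB, which encodes the actin subunit of these complexes and of the cytoskeleton, 9818 bp wide in HepG2 and 6216 bp wide in Huh7. It was narrowest in HepG2 at H2AZ1, a gene for H2A.Z itself, with 735 bp, and in Huh7 at MBTD1, a methyl-lysine-binding TIP60 subunit, with 262 bp. The median INO80 widths of the 14 were 1435 bp in HepG2 and 1089 bp in Huh7. All 9 lists had a peak at 5 of the 14, MORF4L1, EPC1, EPC2, RUVBL1 and ACTB, and at 5.26% of all genes. The median was 7.5 lists, against 4 over all genes.

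Genes of the INO80 complex's own subunits and of the NSL complex, which shares MCRS1, were set beside them. INO80 had a peak at 10 of 10 INO80-specific subunit genes in HepG2 and 7 of 10 in Huh7, with median widths of 873.5 and 526 bp. It had a peak at 7 of 8 NSL genes in each line, with median widths of 1360 and 921 bp. Over all genes the INO80 shares were 63.7% in HepG2 and 47.7% in Huh7, with median widths of 1118.5 and 635 bp. RUVBL2 in Huh7 had a peak at 4 of the 10 TIP60 and SRCAP members and 6 of the other 14 genes. It had one at 2 of 10 INO80-specific subunit genes, 3 of 8 NSL genes and 12.7% of all genes. In the same order, RUVBL2 in HepG2 had a peak at 8, 11, 9 and 7 genes (39.1% of all genes). RUVBL1 in HepG2 had one at 4, 8, 6 and 3 (16.8%), and MCRS1 in Huh7 at 3, 8, 5 and 5 (21.8%). The median number of lists was 7.0 for the INO80-specific genes and 7.5 for the NSL genes. These differences between lists of genes were not tested.

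Motifs were searched on both strands of the 300 bases at the start of each gene, beside all 19744 promoters of that length. The YY1 core CCATNTT was at 2 of the 10 genes, KAT5 and BRD8, and in 14.8% of promoters. Within 500 bases of the start on either side it was at 3 genes, with DMAP1 added, and in 39.4% of promoters. The ETS motif CCGGAAG was at 4 genes (KAT5, EP400, ACTR6 and DMAP1) and in 13.96% of promoters, and the SP motif GGGCGG at 6 genes and in 61.4%. The NFY motif ATTGG was at 2 genes and in 35.95% of promoters, and the NRF1 motif TGCGCA at 1 gene, YEATS4, and in 10.8%. The 300 bases about the centre of the widest YY1 peak held the core at 1 of 10 genes in HepG2, BRD8, and at 0 of 9 in Huh7. Over all YY1 peaks at promoters the share was 15.6% in HepG2 and 17.5% in Huh7, and over all YY1 peaks it was 20.6% and 19.4%. These windows sit at the middle of a peak, since the lists give no point of highest signal. The core matches at the starts of KAT5 and BRD8 lay under the YY1 peaks of both lines. Only that of BRD8 in HepG2 fell inside the window. A match is a run of letters and no evidence of binding, and a gene without one may still be bound.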

How the data were processed

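The authors deposited 1 filtered peak list per factor and line, with chromosome, start and end on hg19 and no score or height. Bowtie2, SAMtools, deepTools, MACS2 and bedtools are named in the submitters' processing notes, without versions. The filter, and whether libraries were pooled before peaks were called, are not given in the sources used here. Of the deposited files, the fly spike-in table was not used, and the input and histone acetylation libraries were not analysed here.

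The genes, the comparison lists and the alternatives were chosen with earlier results of these data known. A gene had a peak when any base lay within 1 kb of a coding start in GENCODE release 44 (basic set, lifted to GRCh37, the sequence of hg19). Overlap meant at least 1 shared bp, and the widest peak stood for a gene. Counts of the 10 genes were set beside all 19785 protein-coding genes, with no test, since each list is a single list without replicates and width is the only measure. All 10 genes are named in every list. Of the other TIP60 and SRCAP genes, those named lack INO80 in a line, have its widest or narrowest peak, or have a peak in all 9 lists, the last chosen after their values were seen. The same holds for the search of YY1 peak centres for the motif. Coordinates are 1-based. Python 3.11.15, pandas 2.3.3, numpy 2.4.6 and matplotlib 3.10.9 were used. The overlap code was tested on simulated data.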

Additional observations from a re-analysis of the deposited data

How the results depend on the processing

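Of 159 alternative settings run, 134 left the count or median within 1.5 times its value and 25 did not. These included windows of 250 bp and 5 kb, other starts, peak centres, and leaving out SRCAP (on a chromosome HepG2 carries in extra copies) or BRD8 (shared peaks). Leaving out 1 gene cannot move a count of 3 or more beyond 1.5 times, so those counts stayed within the limit by construction. Counts with a peak moved when narrow peaks were removed. With the wider 50% of each list, INO80 had a peak at 6 genes in HepG2 (47.6% of all genes) and 4 in Huh7 (30.4%), and RUVBL2 in Huh7 at 2 (6.8%). With the 3322 widest peaks of each list, HepG2 gave 1 for INO80, 1 for MCRS1, 1 for RUVBL2 and 5 for YY1, and Huh7 gave 3 for INO80 and 2 for YY1. Overlaps of INO80 with a partner in those lists were then 1 each for MCRS1, RUVBL1, RUVBL2 and YY1 in HepG2, and 2 for RUVBL2 and 2 for YY1 in Huh7. With peaks set to 200 bp, INO80 overlapped its own Huh7 peak at 4 genes, and in HepG2 it overlapped MCRS1 at 4, RUVBL1 at 2, RUVBL2 at 4 and YY1 at 6. With 50% of the INO80 peak covered, RUVBL1 gave 2 and RUVBL2 3 in HepG2, and with centres within 250 bp RUVBL2 gave 5. For none of these overlap counts was the share of all genes computed. The median INO80 width in Huh7 became 420 bp for the nearest peak and 420 bp for a 250 bp window, both through ACTR6. The cuts by width and the 200 bp peaks hold fewer or narrower peaks by construction, and the others change the overlap rule, the window or the peak taken. No paired analysis was possible because each list is 1 per factor and line, and for that reason no library could be left out. Depth, which can set peak number and width, is unknown.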
